A study of Mus musculus with 11 samples.

Results

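The Argonaute and microRNA processing genes examined here were *Ago1*, *Ago2*, *Ago3*, *Ago4*, *Dicer1*, *Drosha*, *Dgcr8*, *Tnrc6a*, *Tnrc6b* and *Tnrc6c*, 10 of the 35127 genes with an annotated transcript in the bulk RNA sequencing of KP1 cells. They were chosen by name as the core of the microRNA pathway, with their lower level in irradiated cells already known. Their difference between irradiated and control cells is therefore given as a description, with no p-value, and counts of members called by a fit over all genes stand only beside the share of all genes called. KP1 is a *Rb/p53* mutant mouse small cell lung cancer (SCLC) cell line of the SCLC-A subtype, so both groups carry these mutations and all libraries come from a single line. The 2 control libraries (replicates 2 and 3) came from untreated cells, and the 3 irradiated libraries (replicates 1 to 3) from cells collected 24 h after 5 Gy. No label states that replicates were separate cultures, so p-values measure the spread between these samples, which may be technical. In bulk samples, fewer cells of a type and less RNA per cell cannot be told apart.

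MicroRNAs are small RNAs that guide repression of messenger RNAs. In the nucleus the Microprocessor, formed by the nuclease DROSHA and the RNA-binding protein DGCR8, cuts hairpins out of primary transcripts, and in the cytoplasm DICER1 trims these hairpins to short duplexes. An Argonaute protein keeps a single strand and pairs it with target messenger RNAs, while the TNRC6 proteins (GW182 family) link Argonaute to the enzymes that shorten poly(A) tails and remove caps. The libraries measured messenger RNA and other annotated transcripts, and mature microRNAs were not measured.

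The libraries held between 21185956 and 31036317 estimated reads. The average read came from a transcript of 5463 bases in control replicate 2 and 4729 bases in control replicate 3, against 3715, 3625 and 3998 bases in the irradiated libraries, so the irradiated libraries drew fewer of their reads from long transcripts. Control replicate 2 lay furthest from the irradiated libraries on this measure. All 10 neuroendocrine markers passed the filter on low counts. Of 15 markers of leukocytes, fibroblasts, endothelium and lung epithelium, *Col3a1*, *Scgb1a1* and *Krt5* had 0 reads, and *Ptprc* had at most 24 reads in a library. Among these 15, only *Pdgfra*, with 94.3 to 130 CPM (read counts scaled to library size), and *Foxj1*, with 2.99 to 7.61 CPM, were above 5 CPM in any library. By edgeR, 1 of the 10 neuroendocrine markers was lower in irradiated cells (*Ncam1*, log2 fold change -1.20, adjusted p = 0.0227) and 4 were higher, *Epcam* (1.34, adjusted p = 0.018), *Calca* (1.18, 0.0474), *Uchl1* (1.14, 0.0229) and *Syp* (0.64, 0.0316). With an offset for transcript length, *Epcam* alone passed. The 10 markers summed to 3009.7 and 2934 CPM in controls and 3064 to 3458 CPM in irradiated cells. The 15 other markers summed to 142 and 134 CPM against 103 to 135 CPM, and 1 of the 7 tested, *Sftpc*, was higher (1.72, adjusted p = 0.0276), at 0.805 and 1.46 CPM against 3.30 to 4.02 CPM. The part of these markers in the results was not tested.

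Expressed per length, as TPM (abundance corrected for transcript length within a library), the members covered a wide range in control cells. *Drosha* had the highest level, 123.9 ± 23.8 TPM (SD, n = 2), and its lowest control value lay above the highest of *Dgcr8*. *Dgcr8* (88.2 ± 1.54 TPM), *Dicer1* (87.6 ± 19.3), *Ago1* (76.0 ± 15.2), *Ago2* (69.4 ± 21.3), *Tnrc6a* (64.0 ± 2.71) and *Tnrc6c* (58.3 ± 5.93) followed, and the control values of each overlapped those of the next. *Tnrc6b* (38.9 ± 8.05 TPM) and *Ago3* (20.02 ± 8.06 TPM) lay below without overlap. *Ago4* had 0.0220 ± 0.0167 TPM. In irradiated cells (n = 3) the order again ran from *Drosha* (59.7 ± 14.3 TPM) and *Dgcr8* (36.3 ± 3.49 TPM) down to *Tnrc6b* (11.3 ± 2.55 TPM) and *Ago3* (5.95 ± 0.557 TPM), and the values of the 5 genes between *Dgcr8* and *Tnrc6b* overlapped from each gene to the next.

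Among the Argonaute genes, *Ago1*, *Ago3* and *Ago4* lie side by side on the minus strand of chromosome 4 of GRCm38 (mm10). *Ago3* spans positions 126331704 to 126429556, *Ago1* 126435012 to 126468583 and *Ago4* 126489541 to 126533472, while *Ago2* lies on the minus strand of chromosome 15 from 73095844 to 73184935. These neighbouring paralogues differed greatly in level, from 76.0 TPM for *Ago1* in controls to 0.0220 TPM for *Ago4*. Their promoters, the 250 bases upstream of the RefSeq start (GRCm38.p6), are shown for this reason, with those of *Dicer1* and *Drosha* for comparison. The windows are chr4:126468584-126468833 for *Ago1*, chr4:126429543-126429792 for *Ago3*, chr4:126533459-126533708 for *Ago4* and chr12:104751953-104752202 for *Dicer1*, all on the minus strand, and chr15:12824565-12824814 on the plus strand for *Drosha*. Capitals mark, on either strand, the GC box (GGGCGG), the CCAAT box (CCAAT) and the ETS core (CCGGAAG), and adjacent matches run together.
Ago1: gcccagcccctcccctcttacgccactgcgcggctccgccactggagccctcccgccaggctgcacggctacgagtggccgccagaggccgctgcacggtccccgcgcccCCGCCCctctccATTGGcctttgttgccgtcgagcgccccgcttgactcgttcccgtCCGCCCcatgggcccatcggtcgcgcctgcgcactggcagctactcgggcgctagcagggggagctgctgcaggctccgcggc
Ago3: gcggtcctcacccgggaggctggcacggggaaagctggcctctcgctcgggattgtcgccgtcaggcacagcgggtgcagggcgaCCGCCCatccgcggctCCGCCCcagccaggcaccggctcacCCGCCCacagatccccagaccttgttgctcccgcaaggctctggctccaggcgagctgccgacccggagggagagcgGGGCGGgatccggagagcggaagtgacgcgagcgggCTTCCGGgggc
Ago4: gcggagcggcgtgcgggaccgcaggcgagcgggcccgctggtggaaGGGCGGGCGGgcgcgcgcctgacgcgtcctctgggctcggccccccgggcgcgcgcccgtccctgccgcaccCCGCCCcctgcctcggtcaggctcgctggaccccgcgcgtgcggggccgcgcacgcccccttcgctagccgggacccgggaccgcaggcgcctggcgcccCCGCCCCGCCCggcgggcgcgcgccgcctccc
Dicer1: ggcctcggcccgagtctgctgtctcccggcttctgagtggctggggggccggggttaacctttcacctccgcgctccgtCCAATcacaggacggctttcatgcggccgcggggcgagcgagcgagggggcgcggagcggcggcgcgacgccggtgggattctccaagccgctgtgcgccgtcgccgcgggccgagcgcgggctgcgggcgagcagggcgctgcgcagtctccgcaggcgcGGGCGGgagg
Drosha: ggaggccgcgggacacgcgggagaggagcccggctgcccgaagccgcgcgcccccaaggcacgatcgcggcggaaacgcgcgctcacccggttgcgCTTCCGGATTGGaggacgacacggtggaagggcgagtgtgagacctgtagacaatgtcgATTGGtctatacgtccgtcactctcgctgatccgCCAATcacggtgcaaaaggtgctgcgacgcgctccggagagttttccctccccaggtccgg

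The promoters of the Argonaute genes were rich in G and C, with 74.4% for *Ago1*, 73.6% for *Ago3* and 85.6% for *Ago4*, against a median of 52.4% over the 32851 promoters of the RefSeq table. They held 28, 27 and 46 CpG dinucleotides, against a median of 6. The GC box was found 2 times for *Ago1*, 4 times for *Ago3* and 5 times for *Ago4*. Promoters were listed for 9 of the 10 members, all but *Ago2*, and where a gene had more than 1 window the window with the lowest coordinate was used. The GC box was found in 6 of these 9 (32.7% of all promoters), the CCAAT box in 5 (33.8%) and the ETS core in 2 (6.91%). The E-box CACGTG (6.02% of all promoters), the TATA box TATAAA (12.4%) and the palindromic NRF1 site (0.782%) were found in 0 of the 9. A second window of *Tnrc6b*, left out of these counts, held 1 E-box, and the shares of all promoters count every window. Such matches are a description of these windows.

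*Ago2*, the Argonaute with slicer activity, had 627 and 388 CPM in control replicates 2 and 3 and 234, 168 and 227 CPM in irradiated replicates 1, 2 and 3. The groups did not overlap, and control replicate 2 stood 1.62-fold above control replicate 3, the widest gap between controls among the 9 members tested. The mean CPM of irradiated libraries was 41.3% of that of controls, a log2 fold change of -1.28 with a standard error (SE) of 0.23. Nearly all of its TPM, from 98.2% to 100% in a library, came from Ago2-201, a transcript of 13800 bases.

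*Ago1*, the Argonaute with the highest mean TPM here, had 265 and 200.4 CPM in controls and 116, 108 and 139 CPM in irradiated cells. All irradiated values lay below both controls, with a log2 fold change of -0.94 (SE 0.18). The protein-coding transcript Ago1-201 (7227 bases) held 71.5% and 78.5% of the TPM in controls and 88.5%, 93.3% and 76.0% after irradiation. The transcript Ago1-202, annotated as a target of nonsense-mediated decay, held 10.6% and 6.57% in controls and 3.68%, 2.45% and 5.63% in irradiated cells, so its shares did not overlap between the groups. Over the whole library the TPM share of transcripts with this annotation was also lower, 2.16% in both controls and 1.83% to 1.93% in irradiated cells.

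*Ago3*, a further Argonaute, had 76.4 and 70.2 CPM in controls and 21.9, 25.7 and 28.4 CPM in irradiated cells. The controls were close to each other, within a factor of 1.09, and the irradiated mean was 34.5% of theirs. Its log2 fold change of -1.53 (SE 0.16) was the lowest of the 9 members tested. Ago3-201, a transcript of 15595 bases, held 95.9% to 98.4% of the reads but only 31.4% to 59.1% of the TPM, because short processed transcripts with few reads weigh heavily per length. The TPM of *Ago3* therefore rests partly on such transcripts, for example Ago3-205 (625 bases) with 53.0 estimated reads and 9.86 TPM in control replicate 2.

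*Ago4* was at the edge of detection, with 1 and 3 reads in controls and 3, 0 and 4 reads in irradiated cells. These counts lie at or near the 3 reads taken as the floor in a library, and *Ago4* did not pass the filter, so no change is given. The 4 Argonaute genes together summed to 197 and 134 TPM in controls and 60.3, 47.2 and 71.8 TPM in irradiated cells, without overlap. Within this sum *Ago1* held 44.0% to 54.7%, *Ago2* 37.1% to 43.3% and *Ago3* 7.86% to 13.1%, and the shares of each of the 3 overlapped between the groups.

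Of the Microprocessor genes, *Drosha*, the nuclease (chromosome 15, plus strand, 12824815 to 12935291), had 322 and 239.6 CPM in controls and 152, 141 and 199.7 CPM in irradiated cells. The irradiated values lay below both controls, and irradiated replicate 3 came nearest to them. The log2 fold change was -0.77 (SE 0.20). Drosha-201 (4519 bases) held 94.0% to 97.6% of the TPM in all libraries.

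*Dgcr8*, the RNA-binding partner of DROSHA (chromosome 16, minus strand, 18253948 to 18289246), had 124 and 112 CPM in controls and 66.9, 79.9 and 92.6 CPM in irradiated cells. Its log2 fold change, -0.56 (SE 0.17), was the smallest in size of the 9, and the groups did not overlap. The irradiated mean was 67.6% of controls in CPM and 41.2% in TPM. This percentage was lower by TPM for each tested member. The median log2 fold change of all genes was -0.25 by TPM (limma on log2(TPM + 1)). The TPM of *Dgcr8* rests partly on short processed transcripts with few reads. A transcript of 442 bases held 28.2% in control replicate 2 with 62.3 reads. A transcript of 98 bases held 13.7% in control replicate 3 with 4 reads and 14.5% in irradiated replicate 1 with 2 reads. Protein-coding transcripts alone had 48.7 and 51.3 TPM in controls and 25.35, 26.35 and 34.8 after irradiation. Protein-coding transcripts of *Dgcr8* held 56.0% and 57.5% of its TPM in controls and 76.4%, 73.9% and 86.8% in irradiated cells. By reads they held 87.1% and 86.6% in controls and 92.8% to 97.5% in irradiated cells. Over the whole library the share of protein-coding transcripts was also higher in irradiated cells. By TPM it was 80.65% and 82.35% in controls and 84.5% to 85.0% in irradiated cells. By reads it was 93.15% and 93.0% against 94.1% to 94.7%. The share of all genes with such a difference was not computed. The ratio of *Drosha* TPM to *Dgcr8* TPM was 1.62 and 1.20 in controls and 1.66, 1.36 and 1.89 in irradiated cells, which overlap.

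*Dicer1*, the cytoplasmic nuclease (chromosome 12, minus strand, 104687742 to 104751952), had 256 and 210.3 CPM in controls and 89.6, 101 and 122 CPM in irradiated cells. The irradiated mean was 44.6% of the control mean, with no overlap, and the log2 fold change was -1.16 (SE 0.18). Its TPM was divided among Dicer1-201 (9851 bases, protein-coding) with 27.8% to 40.6%, Dicer1-203 (1460 bases, protein-coding) with 30.6% to 39.6% and Dicer1-206 (4724 bases, processed transcript) with 25.3% to 32.3%. All 3 were lower in TPM in each irradiated library than in either control. The share of all transcripts with this order was not computed. On the TPM scale the median log2 fold change of all genes was -0.25 (limma on log2(TPM + 1)). Dicer1-201 went from 28.1 and 28.6 TPM in controls to 9.48, 10.7 and 13.3 TPM in irradiated cells.

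The TNRC6 scaffold genes showed the same order of groups. *Tnrc6a* (chromosome 7, plus strand, 123123885 to 123195296) had 183 and 155 CPM in controls and 63.4, 85.3 and 85.1 CPM in irradiated cells, with a log2 fold change of -1.12 (SE 0.18). *Tnrc6b* (chromosome 15, plus strand, 80711313 to 80941085) had 235 and 155 CPM in controls and 71.3, 63.4 and 91.4 CPM in irradiated cells, with a log2 fold change of -1.37 (SE 0.22). None of the irradiated values of either gene reached a control value. *Tnrc6c* (chromosome 11, plus strand, 117654289 to 117763439) had 247 and 199.9 CPM in controls and 111, 112 and 132 CPM in irradiated cells, with a log2 fold change of -0.92 (SE 0.16), again without overlap. The 3 genes summed to 169 and 153 TPM in controls and 48.2, 51.7 and 73.5 TPM in irradiated cells. *Tnrc6a* held 30.9% to 43.0% of this sum, *Tnrc6b* 17.4% to 26.4% and *Tnrc6c* 35.3% to 46.5%, and only the share of *Tnrc6c* did not overlap between the groups.

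**Figure D1:**
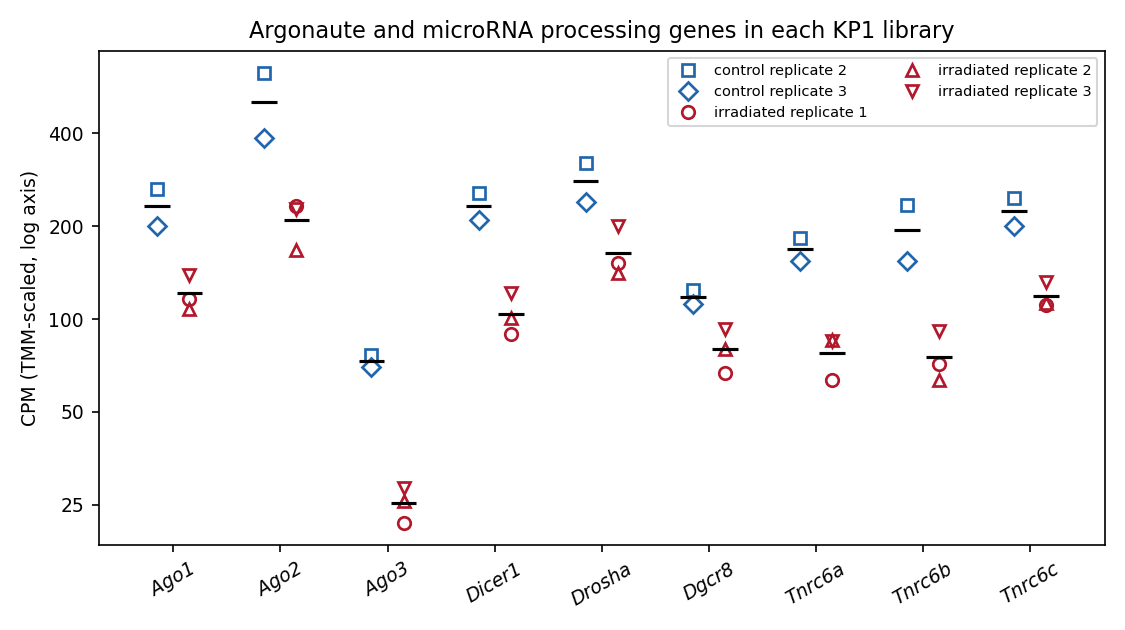
CPM (log axis) of the 9 members that passed the filter, with 1 symbol per library, 2 control libraries in blue, 3 irradiated libraries in red and black bars for the group means. For each gene both controls lie above all irradiated libraries, and control replicate 2 is above control replicate 3.

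At an adjusted p under 0.05 (quasi-likelihood test of edgeR, Benjamini-Hochberg), 9 of the 9 members tested were lower in irradiated cells and 0 were higher, where 13.0% of the 14114 genes tested were lower and 12.7% higher. With a log2 fold change past 1.5 in size as well, 1 member (*Ago3*) was lower and 0 higher, where 1.90% of genes were lower and 1.64% higher. The irradiated values lay below both controls for all 9 members tested and above both for 0, as against 29.3% and 30.1% of genes. The median log2 fold change was -1.12 over these members and 0.02 over all genes tested. These counts restate what the members were chosen for. All 9 were also higher in control replicate 2 than in control replicate 3, as were 49.5% of genes tested. The genes nearest to each member in transcript length had median differences between these controls of 0.00 to 0.48 on the log2 scale, above the member's own difference for *Ago3* (0.34 against 0.12) and *Tnrc6c* (0.39 against 0.31). Without control replicate 2 the log2 fold changes lay between -1.45 and -0.47, and 1 member (*Ago3*) was called lower by edgeR.

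Transcript length moved with the same difference. The 9 members tested had a median transcript length (the mean over a gene's transcripts weighted by TPM) of 6271 bases, against 2560 bases over all genes tested. Along 40 bins of genes ordered by this length, the median log2 fold change went from 0.80 in the shortest bin (median length 495 bases) to -1.06 in the longest (9330 bases). The members lay in the part of this trend where the median log2 fold change of the bins was negative.

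**Figure D2:**
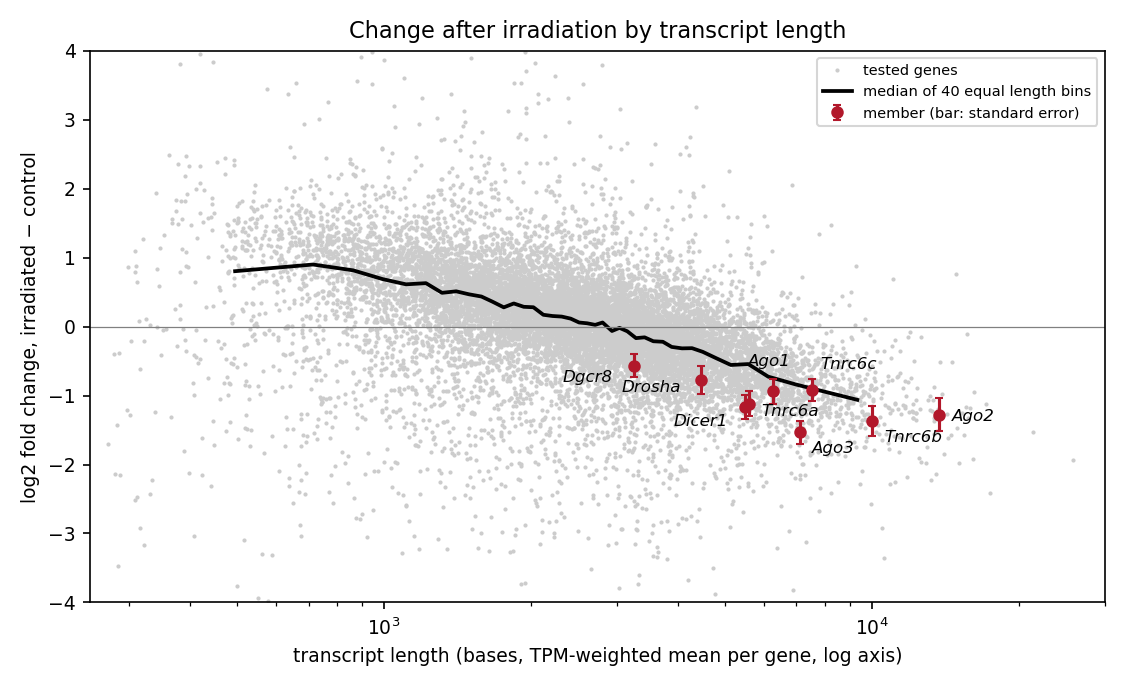
Log2 fold change (irradiated minus control) against transcript length (log axis) for the genes tested, in grey, with the median of 40 length bins as a black line and the 9 members in red with standard errors; 78 genes lie outside the window. The line falls from 0.80 to -1.06, with Ago3, Dicer1 and Tnrc6a well below it and Tnrc6c close to it.

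Each member was therefore set beside the 200 other tested genes nearest to it in transcript length. Of these neighbours, between 7.5% (*Dgcr8*) and 65% (*Ago2* and *Tnrc6b*) were themselves lower at an adjusted p under 0.05. By TPM-weighted length, the largest distances below the median of the neighbours were those of *Ago3* (-0.68 on the log2 scale, neighbours at -0.85), *Dicer1* (-0.61, neighbours at -0.55) and *Tnrc6a* (-0.57, neighbours at -0.55). *Dgcr8* (-0.42), *Drosha* (-0.39), *Tnrc6b* (-0.34), *Ago1* (-0.21) and *Ago2* (-0.15) lay less far below, and *Tnrc6c* lay at the median of its neighbours (0.01). Of the 9, 8 were below the median of their neighbours and 6 below the lower quartile. These counts too depend on the choice of members with their lower level already known, and are a description. When neighbours were taken by the longest transcript of a gene instead, *Drosha* lay furthest below them (-0.63), followed by *Tnrc6a* (-0.42), *Dgcr8* (-0.42) and *Ago3* (-0.41).

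An offset that removed the trend with transcript length in each library, whatever its source, gave smaller differences. *Ago3* had a log2 fold change of -0.76 (SE 0.15) and *Dicer1* of -0.58 (SE 0.13), and these 2 members were lower and 0 higher at an adjusted p under 0.05 with edgeR, where 3.31% of genes were lower and 3.68% higher. *Tnrc6a* (-0.51, SE 0.16), *Dgcr8* (-0.43, SE 0.15), *Drosha* (-0.36, SE 0.16), *Tnrc6b* (-0.34, SE 0.13) and *Ago1* (-0.25, SE 0.12) did not pass. *Ago2* (-0.05, SE 0.14) and *Tnrc6c* (-0.09, SE 0.12) were within 1 SE of 0. This offset used the TPM-weighted length, 7115 bases for *Ago3* and 5479 bases for *Dicer1*. Most reads of these 2 genes came from longer transcripts, Ago3-201 (15595 bases, 95.9% to 98.4%) and Dicer1-201 (9851 bases, 57.7% to 70.8%). By the longest transcript, their distances from neighbours were smaller, -0.41 and -0.33, and an offset by that length was not fitted. With the effective length that Salmon reports as the offset, the members' log2 fold changes lay between -1.44 and -0.71, with a median of -1.20. The median of all genes tested was 0.03 in that fit, and that offset is not fitted to the trend with transcript length.

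**Figure D3:**
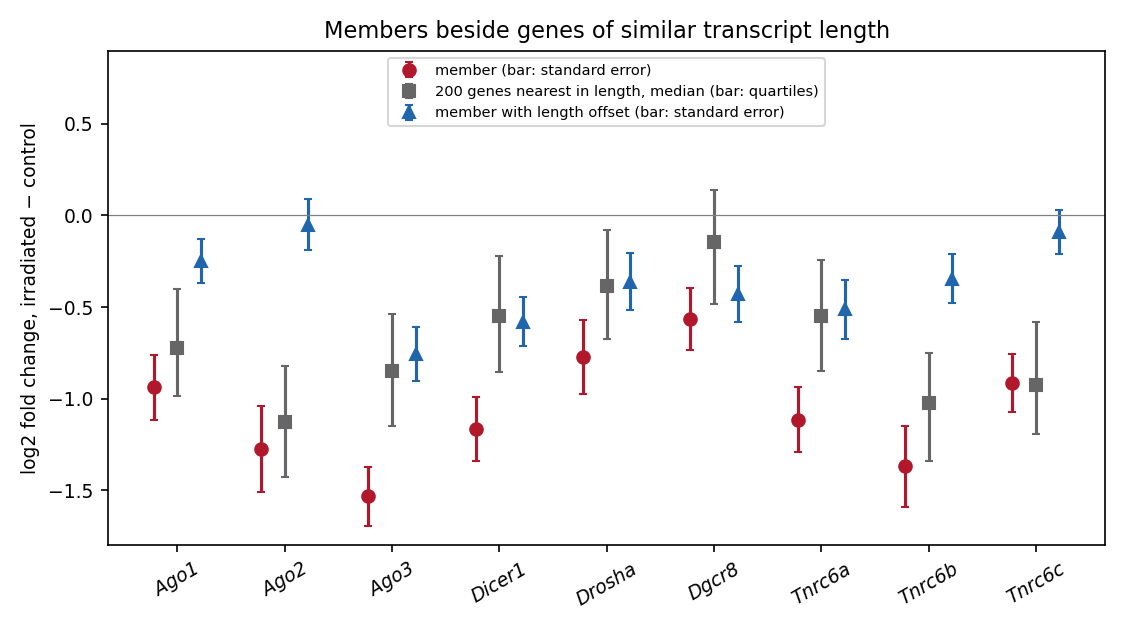
Log2 fold change (irradiated minus control) of each member (red circles, bars are standard errors), the median of the 200 genes nearest in transcript length (grey squares, bars are quartiles) and the member under the length offset (blue triangles, bars are standard errors). With TPM-weighted length, as plotted, Ago3, Dicer1 and Tnrc6a lie furthest below their neighbours, and Ago2 and Tnrc6c lie near 0 with the offset.

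At the level of isoforms, transcripts annotated as retaining an intron took a smaller share of reads in irradiated cells for 5 of the 7 tested members that have such transcripts. The same held for 40.5% of the 6880 tested genes with reads on such transcripts, and the reverse for 2.82%. By TPM in place of reads it held for 3 of the 7 members and 36.6% of 6882 genes. For *Dgcr8* they held 11.2% and 11.4% of the reads in controls and 2.17%, 5.61% and 4.52% in irradiated cells. For *Tnrc6a* the shares were 8.77% and 6.41% in controls and 1.47%, 2.10% and 3.20% in irradiated cells, and for *Tnrc6c* 5.22% and 6.78% against 0.709%, 1.82% and 1.32%. None of these 3 genes overlapped between the groups by reads, but by TPM *Tnrc6a* did, with 14.9% and 8.64% in controls and 3.00%, 4.43% and 11.4% in irradiated cells.

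*Dicer1* had low shares of such reads, 2.11% and 1.90% in controls and 0.232%, 0.709% and 0.511% in irradiated cells, and *Tnrc6b* had 9.90% and 9.19% against 7.36%, 5.43% and 8.32%. By TPM the shares of *Tnrc6b* overlapped, with 29.2% and 28.7% in controls and 24.9%, 20.6% and 32.5% in irradiated cells. *Ago1* and *Drosha* stayed under 1% in every library, with overlapping groups, and *Ago2* and *Ago3* have no transcript of this kind in the annotation used. Over all reads the share moved in the same direction, from 2.35% and 2.68% in controls to 1.23%, 1.76% and 1.55% in irradiated cells. These shares come from Salmon's division of reads among overlapping transcripts, and were not tested.

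**Figure D4:**
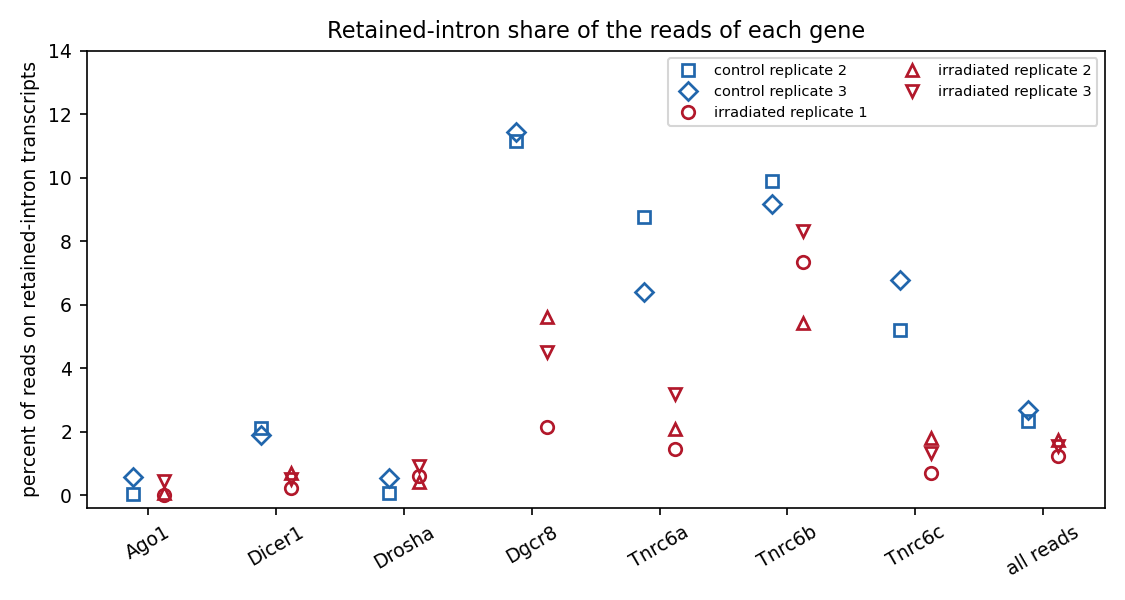
Percent of the reads of a gene that Salmon assigned to transcripts annotated as retaining an intron, by library (blue controls, red irradiated), for the 7 tested members with such transcripts and for all reads. Dgcr8, Tnrc6a, Tnrc6b, Tnrc6c and Dicer1 had lower shares of reads in all 3 irradiated libraries, and all reads together moved from 2.35% and 2.68% to between 1.23% and 1.76%.

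The other genes of the pathway, and genes that host microRNAs, were read in the same comparison. Of 110 tested genes in 7 lists, 28 were lower and 10 higher in irradiated cells at an adjusted p under 0.05 by edgeR. Their median log2 fold change was -0.20. The 24 tested host genes gave 8 of the lower and 1 of the higher. All these counts are to be read against 13.0% of all genes tested lower and 12.7% higher, and so are the counts of each list that follows. With the length offset 6 of the 110 were lower and 5 higher, against 3.31% and 3.68% of all genes. The median transcript length of the 110 genes was 2782 bases.

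Among 15 nuclear cofactors of the Microprocessor, 3 fell and 1 rose (13.0% and 12.7% of all genes), and the median log2 fold change was -0.08. *Safb2*, a scaffold attachment factor, fell from 147 and 162 CPM in controls to 58.0, 79.8 and 85.4 CPM, a log2 fold change of -1.06 (adjusted p = 0.0101 by edgeR), and its relative *Safb* fell by 0.64 (adjusted p = 0.016). *Khsrp*, an RNA-binding protein that promotes processing of some precursors, changed by -1.07 (adjusted p = 0.0217), from 1156 and 731 CPM to 380.3, 390.4 and 582 CPM. *Erh*, a small partner of DGCR8, rose by 0.87 (adjusted p = 0.0384). Neither passed with the length offset, *Khsrp* at -0.81 (adjusted p = 0.0658) and *Erh* at 0.30 (adjusted p = 0.239). *Hnrnpa1*, the most abundant gene of the list, had 1405 ± 113 CPM in controls (SD, n = 2) and 1349 ± 85.7 CPM in irradiated cells (n = 3). *Safb* and *Safb2* are not long (2521 and 1927 bases) and were also lower with the length offset (adjusted p = 0.026 and 0.0202 by edgeR).

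The 3 export genes all passed the test, in both directions. *Xpo5*, the exporter of precursor hairpins, fell from 322 and 269.7 CPM to 153, 204 and 219 CPM, a log2 fold change of -0.62 (adjusted p = 0.0438 by edgeR), and *Xpo1*, a general exporter, fell by 0.56 (adjusted p = 0.0338). *Ran*, the small GTPase on which both depend, rose from 419 and 422 CPM to 716, 732 and 569 CPM, a log2 fold change of 0.68 (adjusted p = 0.0262). With the length offset 0 of the 3 passed, with *Xpo5* at -0.11, *Xpo1* at -0.22 and *Ran* at 0.56.

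Of 9 genes for tailing and decay of precursors, 0 passed the edgeR test, 5 had an unadjusted p under 0.05 and 3 passed with DESeq2, and their median was 0.00 on the log2 scale. The most abundant, *Tut4*, a uridylyl transferase, had 191 and 171 CPM in controls and 134, 120.1 and 143 CPM in irradiated cells (adjusted p = 0.0549 by edgeR). Of 15 partners of DICER1 and chaperones that load Argonaute, 3 rose and 0 fell by edgeR, with 3 lower at an unadjusted p under 0.05 and 1 by DESeq2. *Prkra*, the PACT protein that binds DICER1, rose from 10.9 and 11.8 CPM to 23.2, 23.2 and 18.6 CPM, a log2 fold change of 0.93 (adjusted p = 0.0154 by edgeR). The cochaperones *Dnajb1* and *Cdc37* rose by 0.63 (adjusted p = 0.02) and 0.51 (adjusted p = 0.0336). With the length offset *Dnajb1* passed (0.70, adjusted p = 0.0291), while *Prkra* (0.57, 0.0759) and *Cdc37* (0.14, 0.493) did not. *Hsp90ab1*, the most abundant, had a log2 fold change of 0.06 (SE 0.17).

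Of 16 tested partners of Argonaute and factors of its turnover, 2 fell and 2 rose. *Ipo8*, an importin that binds Argonaute, fell by 0.64 (adjusted p = 0.0143 by edgeR). *P4ha1*, a prolyl hydroxylase subunit, rose from 64.8 and 65.0 CPM to 117, 109 and 119 CPM, a log2 fold change of 0.83 (adjusted p = 0.00955), and with the length offset it was also higher (0.92, adjusted p = 0.0202). *Tsnax*, a subunit of the C3PO nuclease, rose by 0.68 (adjusted p = 0.0351). With that offset *Ipo8* (-0.22, adjusted p = 0.293) and *Tsnax* (0.61, 0.0583) did not pass. *Pum2*, the most abundant, had 485 ± 54.7 CPM in controls and 356 ± 27.5 CPM in irradiated cells (adjusted p = 0.0684).

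The list of deadenylation, decapping and repression, the effectors recruited by TNRC6 proteins, held 13 genes that fell and 2 that rose among 28 tested (13.0% and 12.7% of all genes), with a median log2 fold change of -0.44. *Dcp2*, the decapping enzyme, fell from 292 and 230.3 CPM to 130.3, 111 and 132 CPM, a log2 fold change of -1.07 (adjusted p = 0.00922 by edgeR). Its partner *Dcp1a* changed by -1.08 (adjusted p = 0.012) and the exonuclease *Xrn1* by -0.84 (adjusted p = 0.0106), but *Xrn1* had a log2 fold change of 0.02 with the length offset. *Lsm1*, of the ring that binds decapping substrates, rose by 1.12 (adjusted p = 0.0302). *Cnot8*, a catalytic subunit of the CCR4-NOT deadenylase, rose by 1.09 in CPM (adjusted p = 0.0351) but had a log2 fold change of -0.12 on the TPM scale. *Pabpc1*, the poly(A)-binding protein and the most abundant gene of the list, had 2242 and 1367 CPM in controls and 1399, 1003 and 1450 CPM in irradiated cells, which overlap. With the length offset 2 genes of this list were lower, *Dcp2* among them, and 1 higher (3.31% and 3.68% of all genes). *Dcp1a* (-0.72, adjusted p = 0.0522), *Lsm1* (0.99, 0.0655) and *Cnot8* (0.59, 0.128) did not pass with it.

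**Figure D5:**
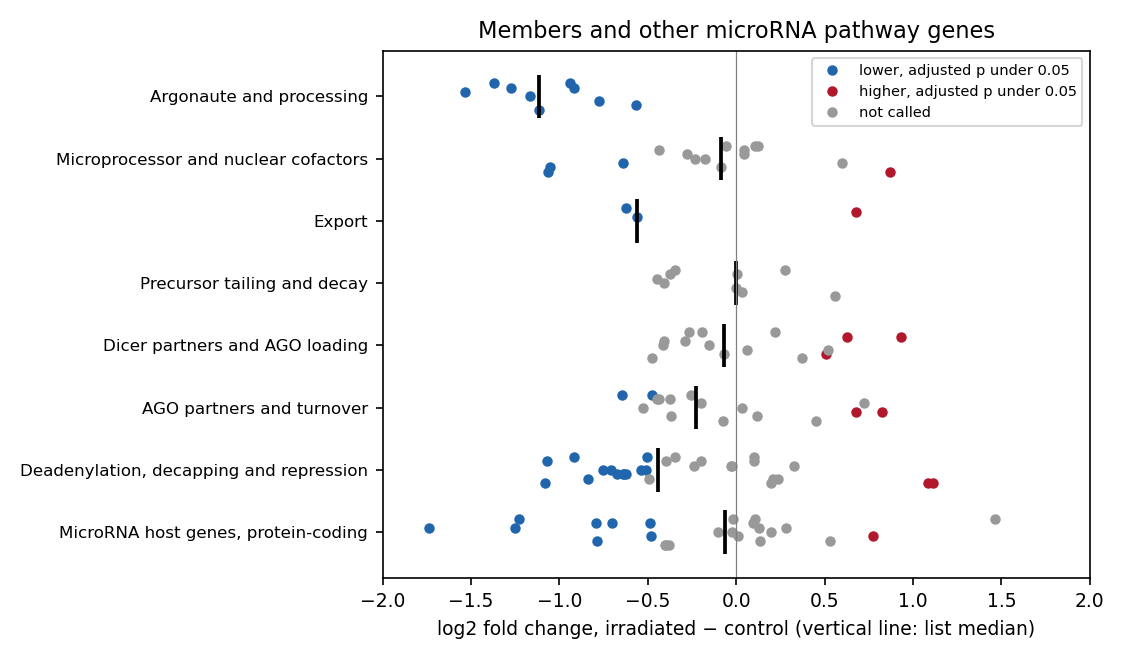
Log2 fold change (irradiated minus control) of the 9 members and of the tested genes of 7 lists, host genes of microRNAs included. Blue marks genes lower and red genes higher at an adjusted p under 0.05 by edgeR. Grey marks the others, and a black line the median of each list. The members have a median of -1.12, and the medians of the 7 lists lie between -0.56 and 0.00.

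The 3 genes of the PIWI clade, the germline relatives of Argonaute, did not pass the filter and had at most 16 reads in a library. Of 27 protein-coding genes listed as hosts of microRNAs in their introns or exons, 24 were tested, and 8 fell and 1 rose. *Huwe1*, a ubiquitin ligase, fell from 1496 and 721 CPM to 343, 281 and 372 CPM, a log2 fold change of -1.74 (adjusted p = 0.00922 by edgeR). *R3hdm1* fell from 346 and 221 CPM to 116, 107 and 139.5 CPM, a log2 fold change of -1.23 (adjusted p = 0.00959), and was also lower with the length offset (adjusted p = 0.026). *Atad2*, a bromodomain ATPase, fell by 0.79 (adjusted p = 0.0102 by edgeR), but RefSeq placed no mature microRNA within it on the same strand. *Copz1*, a coatomer subunit, rose from 48.8 and 84.1 CPM to 105, 129 and 107 CPM, a log2 fold change of 0.77 (adjusted p = 0.0447). With the length offset *Huwe1* (-0.70, adjusted p = 0.0623), *Atad2* (-0.22, 0.348) and *Copz1* (0.46, 0.14) did not pass.

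Of the 9 mature microRNAs that RefSeq places within *Huwe1*, *R3hdm1* and *Copz1*, 4 are shown to name what these hosts carry, since mature microRNAs were not measured. They are given as in GRCm38.p6, with the seed, bases 2 to 8, in capitals. The let-7f and miR-98 strands from *Huwe1* share a seed, while those of the other hosts each have their own.
mmu-let-7f-5p: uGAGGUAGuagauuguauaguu
mmu-miR-98-5p: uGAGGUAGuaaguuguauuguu
mmu-miR-128-3p: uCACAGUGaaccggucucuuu
mmu-miR-148b-3p: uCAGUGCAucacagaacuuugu

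The hairpins of let-7f-2 and miR-98 lie near each other, with these strands at chrX:151912353-151912374 and chrX:151913229-151913250, those of miR-128 and miR-148b are at chr1:128202404-128202424 and chr15:103285185-103285206, and all are on the plus strand.

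Reads could be divided between paralogues where their sequences are identical. Exact stretches of 31 bases shared with transcripts of other genes covered 6.95% of Dgcr8-201, 5.98% of Ago2-201 and 2.26% of Ago1-201, and under 1% of the main transcript of each other member. Of the 163 such stretches in Ago1-201, 140 were shared with *Ago3*. The copy nearest to *Ago2*, the processed pseudogene *Gm6088*, had 0 reads in all 5 libraries, and *Gm49776*, which shares stretches with *Dgcr8*, had at most 3.

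The genes whose profile over the 5 libraries was most like that of the members were found among 9481 other genes with a mean of at least 10 CPM. Likeness was the root mean square distance of centred log2 CPM from the mean of the 9 members. *Srrm4*, a splicing factor of neurons, was nearest (distance 0.031), followed by *Tro* (0.0406), *Tet3* (0.0458), *Ankrd12* (0.0471) and *Myo9a* (0.0485). For *Srrm4* the values were 155 and 128 CPM in controls and 60.7, 64.2 and 77.8 CPM in irradiated cells. All 5 have long transcripts, from 4788 to 10640 bases. Of the members themselves, *Dicer1* (0.0728), *Ago1* (0.0802) and *Tnrc6c* (0.0836) were nearest to the common profile, and *Dgcr8* (0.262) and *Ago3* (0.25) furthest from it.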

How the data were processed

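KP1 libraries were sequenced by Novogene. The authors ran Salmon with its defaults on mm10 (Salmon 0.8.2 and DESeq2 1.22.2 are named in the submitters' processing notes) and deposited, for 113116 transcripts, estimated counts of reads, which are expected counts without scaling for depth. The authors also deposited TPM from Salmon, scaled to a fixed total within each library, and the length and effective length of each transcript. The annotation release is not given in the sources used here, and 112841 transcripts (99.76%) matched GENCODE M21 by identifier without version.

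Estimated counts were summed per gene and rounded. Irradiated and control libraries were compared over 14114 genes with edgeR 4.0.16 in R 4.3.3 (filterByExpr, TMM, quasi-likelihood test, Benjamini-Hochberg adjustment, no block); CPM use TMM-scaled library sizes. Library totals ranged from 21185956 to 31036317 reads, and the precision of a difference was taken from the spread between libraries (common dispersion 0.0543). Alternatives were DESeq2 1.42.0, limma 3.58.1 on log2(TPM + 1) and log2(TPM + 0.1), other normalizations and filters, and protein-coding features alone. Others were offsets for transcript length or GC content (splines with 5 degrees of freedom), an offset taken directly from Salmon's effective lengths, a replicate block and each library left out. The fits were tested on simulated data.

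Members and lists were chosen with earlier results of these data known. The rule for names took every member, up to 3 genes with the smallest p in each direction and the most abundant gene of each list, the 5 genes most alike in profile, and the microRNAs of named hosts. Tables and promoter searches used Python 3.11.15 with pandas 2.3.3, numpy 2.4.6 and matplotlib 3.10.9. Genes of long non-coding microRNA hosts and 6 single-cell leukocyte samples were not analysed here. Certain items that the rule for names covers are not reported here.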

Additional observations from a re-analysis of the deposited data

How the results depend on the processing

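All 9 tested members kept log2 fold changes below 0 under the 19 alternatives. The reported counts were 9 members lower (1 past both thresholds) and 28 pathway genes, hosts of microRNAs included, lower and 10 higher. With the transcript length offset these were 2 members (0) and 6 and 5 genes. With the replicate block they were 5 members (0) and 5 and 1 genes, and with block and length offset together 0 members (0), 2 of them at an unadjusted p under 0.05 by edgeR, and 0 and 0 genes. The pairing comes from the numbers alone, since deviations of same-numbered libraries correlated at -0.196 across genes, and irradiated replicate 1 has no partner in the block. With the replicate block crossed between numbers 2 and 3, chosen after seeing the data, 9 members (0) and 42 and 17 genes were called. Library size in place of TMM gave 0 members past both thresholds and 18 genes lower, and 0 members were past both with upper quartile scaling, no filter on low counts, the effective length offset or the GC offset. With limma on log2(TPM + 1) and on log2(TPM + 0.1) alike, 5 members were past both, and 46 genes were lower and 1 higher, where the median of all genes moved to -0.25 and -0.27. With 1 library left out, 1 to 9 members were lower and 0 to 3 past both, and 2 to 22 genes were lower and 0 to 13 higher. The lowest of these came without control replicate 2 (1 member, 2 and 0 genes), and without irradiated replicate 1 or 2 the genes were 13 and 2 or 11 and 1. A lone control is assumed to vary like the irradiated libraries. The share of all genes called is given for the main fit (13.0% lower, 12.7% higher) and the transcript length offset (3.31% and 3.68%) alone. Counts of members and pathway genes under the other settings therefore cannot be set against such a share. Xrn1 changed sign with the length offset (0.0152), Xpo5 with the block and length offset (0.0177) and Cnot8 with limma on TPM (-0.12 with either pseudocount). By length of the longest transcript, the distance from neighbours was -0.63 for Drosha, -0.41 for Ago3 and -0.33 for Dicer1. By reads in place of TPM, 14 of 20 group means of the protein-coding isoform share of members moved by more than the spread between replicates. The causes were not tested. 2 controls and 3 irradiated libraries limit all tests, and Ago4 lay at the detection floor.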
